A study of Mus musculus with 6 samples.

Results

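The genes described here are the expressed long intergenic noncoding RNAs (lincRNAs) of immortalized mouse keratinocytes. They were selected on measured level alone, as all autosomal genes that GENCODE M21 classes as lincRNA and that reached at least 0.5 CPM (a gene's count over the library's total count, on the usual scale) in at least 3 of the 6 libraries. The imprinted RNAs H19, Meg3, Rian, Mirg and Peg13 were left out, although none of them would have passed as an autosomal lincRNA. Of 3506 autosomal lincRNA genes among the 49315 genes in the table, 212 passed. Of these, 6 hold a small nucleolar RNA (snoRNA) gene or are named as hosts of one and were set apart, which left 206 members. Another 2244 autosomal lincRNA genes had 0 counts in every library.

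A lincRNA is transcribed between protein-coding genes, is usually spliced and polyadenylated like a messenger RNA, and has no long open reading frame. Some have known roles: Neat1 is the scaffold of paraspeckles and Malat1 resides in nuclear speckles, while Norad acts in the cytoplasm. Most have no known role, and many start near the promoter or enhancer of another gene. In epidermis, individual noncoding RNAs have been tied to keratinocyte growth and differentiation.

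Control libraries came from MK-546 (MK-/-), immortalized keratinocytes from skin that lack integrin α3. The 3A libraries came from MK-546-ha3A (MK-/-:ha3), that line with human α3 put back. Each group had 3 libraries from untreated cells grown on collagen in low-calcium medium, and the comparison asks which RNAs differ with α3. Each group is 1 line, so α3 and the descent of the line cannot be told apart, and whether replicates came from separate cultures is not stated, so p-values measure the spread between these samples only, which may be technical.

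Total counts per library ranged from 25634204 to 36245240. Counts on mouse Itga3 were 33.9, 39.5 and 41.4 CPM in Control 1, 2 and 3 and 82.1, 72.6 and 58.6 CPM in 3A 1, 2 and 3, and how reads of the human transgene were counted is not stated. Keratinocyte markers were present throughout, with 12 of 12 tested and a summed level of 10370 to 13389 CPM in Control and 8436 to 10584 CPM in 3A. Of these, Trp63 and Perp were lower in 3A and none was higher. Fibroblast markers summed to 2.12 to 3.57 CPM and endothelial markers to 0.420 to 0.966 CPM over the 6 libraries. Of 7 melanocyte markers 2 were tested and the pigment-cell gene Pmel was lower (log2 change -1.05, adjusted p = 0.044), with a summed level of 3.10 to 3.67 CPM in Control and 1.67 to 2.21 CPM in 3A, and Dct and Tyr had 0 counts throughout. Of 8 immune markers, which summed to 12.4 to 19.1 CPM in Control and 10.2 to 12.6 CPM in 3A, nearly all came from Cd68, a lysosomal gene (log2 change -0.62, adjusted p = 0.117, and -0.81, adjusted p = 0.0046, without Control 1), while Cd52 and Adgre1 had 0 counts. The part of these markers' cells of origin in the results was not tested. Control 1 stood apart from Control 2 and 3: mitochondrial genes took 1.17% of its counts against 4.19% and 4.73% in those libraries and 1.24% to 1.59% in 3A. Results that rest on that library are therefore also given without it.

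Most members were scarce. Their mean level over the 2 groups had a median of 1.40 CPM, 161 of 206 lay under 5 CPM, and 17 lay over 20 CPM. The median member had 3 exons and 2194 exonic bases, and 183 of 206 carry only a predicted or clone name. At the edge of the rule, A330035P11Rik, 2810414N06Rik and 1810044D09Rik were the last inside, with a third-highest library at 0.511, 0.524 and 0.524 CPM. Gm20045, Gm14321 and Gm43660 were the first outside, each at 0.497 CPM.

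With all 6 libraries, more of these RNAs were higher than lower in 3A. This lean in part follows from the rule, and the counts were closer to each other without Control 1. Of the 206 members, all of which entered the edgeR quasi-likelihood test, 39 were higher in 3A and 6 were lower at an adjusted p under 0.05. These shares are 18.9% and 2.91%, beside 7.52% higher and 7.39% lower over all 13704 tested genes. The members' median log2 fold change was 0.24, against -0.02 for all tested genes. In bulk samples, fewer cells with an RNA and less of it per cell cannot be told apart. The rule itself adds rises: 20 members passed it only through the 3A libraries, so that they had to be high there, and 16 of these were higher, while 3 passed only through Control, 1 of which was lower. Among the 183 that passed through libraries of both groups, 23 (12.6%) were higher and 5 (2.73%) lower, with a median log2 fold change of 0.16.

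**Figure D1:**
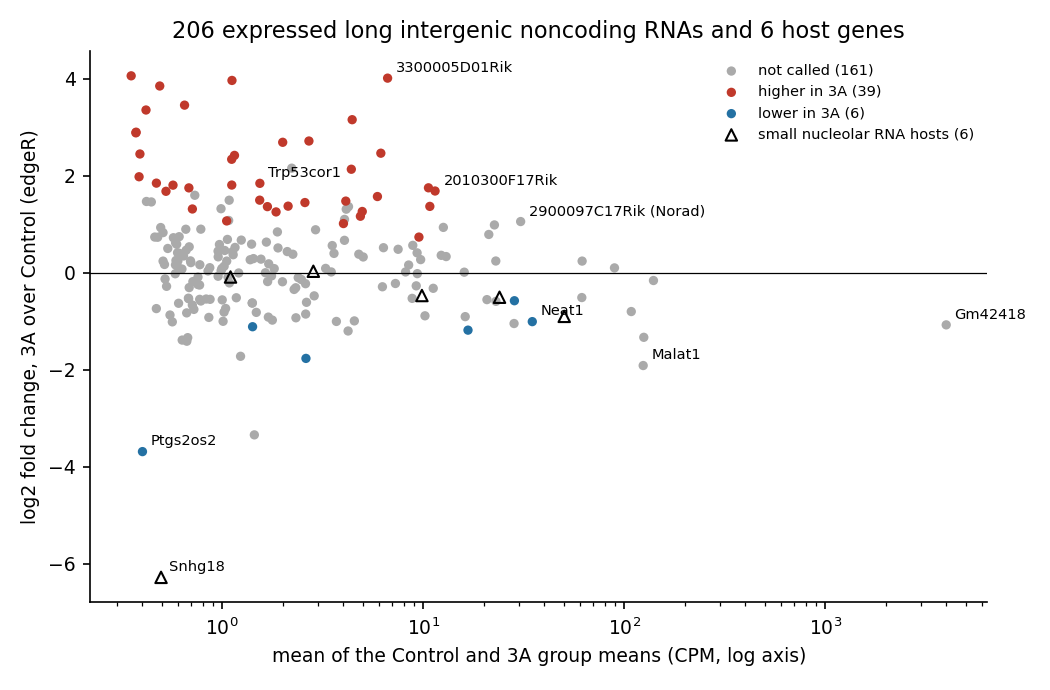
Each point is 1 noncoding RNA, with the mean of its group means in CPM on a log axis and edgeR's log2 fold change of 3A over Control on the vertical axis. Most of the 39 red points (higher in 3A) lie at low levels, while the 6 blue points (lower in 3A) include the abundant Neat1 at -1.01.

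By level of abundance, all 13 rises among members under 1 CPM were of RNAs that passed only through 3A. Of the 58 members under 1 CPM that passed through both groups, 0 were called in either direction by edgeR, and without Control 1 6 were higher and 6 lower. Between 1 and 5 CPM, 16 of 80 that passed through both groups were higher and 2 lower. Of tested genes of that level, 11.9% were higher and 12.2% lower. Without Control 1, 25 of the 80 were higher and 18 lower. At 5 CPM or more, where every member passed through both groups, 7 of 45 were higher (15.6%) and 3 lower (6.67%). Of tested genes of that level, 6.35% were higher and 6.38% lower. Without Control 1 the lean toward rises was absent at this level, with 13 of the 45 higher (28.9%) and 16 lower (35.6%). In that fit 26.2% of all tested genes were higher and 25.8% lower. Over other gene classes, 7.72% of 12009 coding genes were higher and 7.99% lower, of 249 antisense genes 14 were higher and 11 lower, and of 176 genes classed as processed transcripts 11 were higher and 3 lower.

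In 72 members every 3A library lay above every Control library, and in 19 every one lay below, which is 35.0% and 9.22% of members, beside 18.7% and 15.8% of all tested genes. The 72 include all 20 that passed only through 3A. Among the 183 that passed through both groups, the counts were 52 (28.4%) and 16 (8.74%). Without Control 1, 62 members were higher and 43 lower by the same edgeR test, or 30.1% and 20.9%, beside 26.2% and 25.8% of all genes tested then. The members' median log2 fold change in that fit was 0.22, against 0.01 for all genes tested. All 45 members called with 6 libraries were also called in the same direction without Control 1. Among the 183 that passed through both groups, 44 (24.04%) were higher and 40 (21.9%) lower in that fit, with a median log2 fold change of 0.08, so that the share of rises was no longer above that of all genes.

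The largest rise with a substantial level was that of 3300005D01Rik, an RNA of unknown function between coding genes on chromosome 17 (chr17:5798657-5803240, plus strand, GRCm38). It stood at 0.707, 0.356 and 1.17 CPM in Control 1, 2 and 3 and at 13.4, 11.0 and 13.2 CPM in 3A 1, 2 and 3. The groups were far apart, with a log2 change of 4.01 ± 0.41 (SE, edgeR adjusted p = 0.0015). The call held with each of the 6 libraries left out in turn, at a log2 fold change of 3.67 to 4.54. Its nearest coding gene, Snx9, which encodes a sorting nexin of endocytosis, starts 42.7 kb away and had a log2 fold change of 0.01 (adjusted p = 0.982).

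Gm34933 had the largest fitted rise of any member, from 0.0337, 0.0323 and 0.0390 CPM in Control to 0.527, 0.745 and 0.738 CPM in 3A. These are 3 counts against 71 in all, a 19.3-fold ratio with a 95% counting interval of 6.35 to 95.9 (edgeR adjusted p = 0.0023). The RNA was close to the limit of detection in every Control library and readily counted in every 3A library.

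5330413D20Rik rose from 0.236, 0.0647 and 0.0780 CPM to 1.32, 2.29 and 2.72 CPM (log2 fold change 3.96 ± 0.53, edgeR adjusted p = 0.0042). Gm44812 rose from 0.101, 0.0323 and 0.0390 CPM to 0.849, 0.607 and 1.30 CPM (log2 fold change 3.85 ± 0.56, adjusted p = 0.0056). Both kept their calls with any library left out, and in both the highest Control library was Control 1. Neither has a function that is known with confidence.

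Some of the largest fold changes rested on few Control reads or on the spread of Control 1. Gm11815 had 0.303 CPM in Control 1, 0 counts in Control 2 and 3, and 1.02, 1.44 and 1.14 CPM in 3A. The fitted log2 change was 3.45 ± 0.91 (edgeR adjusted p = 0.046), and with a library left out it ranged from 2.87 to 8.24 and was called in 1 of 6 fits, the one without Control 1. 1190028D05Rik had 2.12 CPM in Control 1 against 0.323 and 0.195 CPM in Control 2 and 3, and 4.21, 9.63 and 10.1 CPM in 3A. It rose by 3.15 ± 0.79 on the log2 scale (adjusted p = 0.039) with all libraries and by 4.78 without Control 1, the sole fit with a library left out that called it. In both RNAs every 3A library nevertheless stood above every Control library.

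The 12 largest rises also included the following RNAs, all with separate groups. Among the 12, Gm34933, 5330413D20Rik, Gm44812, Gm11815, 5930412G12Rik, 5430421F17Rik and Gm44956 passed the rule only through 3A. Gm39822 went from 0.640, 0.323 and 0.585 CPM to 4.16, 3.20 and 3.09 CPM (log2 fold change 2.69 ± 0.33, edgeR adjusted p = 0.0032). Gm11033, a long gene of 10 exons on chromosome 8, went from 0.404, 0.841 and 0.780 CPM to 5.30, 4.11 and 4.77 CPM (2.71 ± 0.36, adjusted p = 0.0042). Both were called with any library left out. 5430421F17Rik and Gm44956 stayed under 1 CPM in every library and rose by 2.89 ± 0.47 (adjusted p = 0.0084) and 2.88 ± 0.68 (adjusted p = 0.033). 5430421F17Rik lost its call without 3A 3 (adjusted p = 0.0555), and Gm44956 was called in 1 of the 6 fits with a library left out, the one without Control 1.

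**Figure D2:**
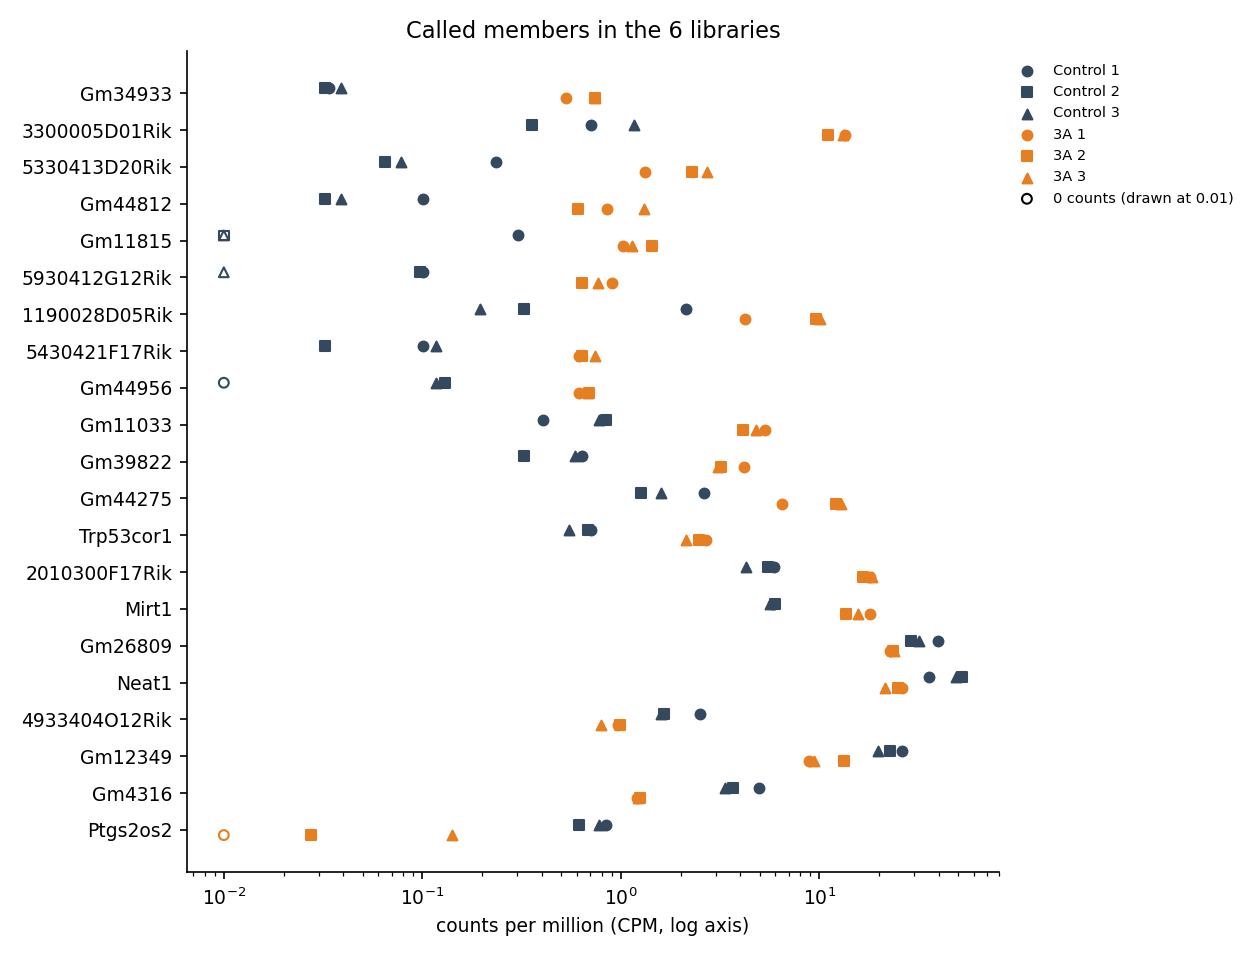
Points give CPM in each library on a log axis for the 12 largest rises, for Trp53cor1, 2010300F17Rik and Mirt1, and for the 6 members that fell, with open symbols at 0.01 for 0 counts. Orange (3A) and dark (Control) points do not overlap in any row, and for Gm11815 and 1190028D05Rik Control 1 lies toward the 3A libraries.

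Rises were also seen among RNAs counted at higher levels, where counting error is small: 6 of the 39 had a 3A mean of at least 10 CPM. 2010300F17Rik stood at 5.93, 5.53 and 4.29 CPM in Control libraries against 17.99, 16.5 and 18.5 CPM in 3A (log2 fold change 1.68 ± 0.17, edgeR adjusted p = 0.0014). It lies within the T-cell adaptor gene Skap1 on the other strand, and 188 of its bases are shared with a Skap1 transcript. Skap1 itself was between 0.0674 and 0.731 CPM and did not pass the test, so its level was far below that of the noncoding RNA.

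Mirt1, first described as induced in heart tissue after infarction, was at 5.83, 5.95 and 5.66 CPM in Control libraries against 17.97, 13.7 and 15.6 CPM in 3A (log2 fold change 1.36 ± 0.18, edgeR adjusted p = 0.0040). Gm20744 was at 6.54, 3.95 and 3.71 CPM and at 13.4, 18.8 and 17.3 CPM (1.75 ± 0.24, adjusted p = 0.0045). B230208H11Rik went from 2.70, 3.36 and 2.54 CPM to 10.7, 8.80 and 7.43 CPM (1.57 ± 0.23, adjusted p = 0.0063). The groups were separate in all of these, and each call held with any library left out. Mirt1 overlaps another member, 4833407H14Rik, on the opposite strand over 1011 identical bases, and that RNA had a log2 fold change of 0.08 (adjusted p = 0.879).

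Over the whole set, rises ranged from 0.73 to 4.06 on the log2 scale with a median of 1.80, and 38 of 39 were at least 2-fold. Most were of scarce RNAs: the median 3A mean was 2.43 CPM, and 17 were under 2 CPM there. With each library left out in turn, 14 of the 39 rises and 1 of the 6 falls were called in all 6 fits, and none of the 45 changed direction in any fit.

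The best characterised of the RNAs that rose was Trp53cor1 (lincRNA-p21), described as a p53 target that acts on the neighbouring cell-cycle inhibitor gene Cdkn1a. It was at 0.707, 0.679 and 0.546 CPM in Control libraries against 2.69, 2.48 and 2.13 CPM in 3A (log2 fold change 1.84 ± 0.26, edgeR adjusted p = 0.0054). All 3A libraries were higher, and the call held with any library left out. Its start lies 11.8 kb from that of Cdkn1a (Trp53cor1 at chr17:29057430-29079179, minus strand). Cdkn1a was at 285, 259 and 280.1 CPM in Control libraries against 271, 222 and 208 CPM in 3A, with overlapping groups and a log2 fold change of -0.31 ± 0.16 (adjusted p = 0.214).

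Of 5 listed RNAs described as p53 targets, 4 were tested, and Trp53cor1 rose while Neat1 fell. Tug1, classed as antisense and so not among the members, was at 70.8, 49.7 and 48.0 CPM in Control libraries against 70.05, 85.0 and 88.9 CPM in 3A (log2 change 0.47, edgeR adjusted p = 0.103, and 0.61, adjusted p = 0.011, without Control 1). Pvt1, from the Myc locus, had overlapping groups at 25.1, 19.9 and 16.7 CPM in Control libraries against 25.9, 25.0 and 25.0 CPM in 3A. Trp53 itself had a log2 fold change of -0.92 (edgeR adjusted p = 0.137), and the p53 target genes Mdm2 and Bax had 0.63 (adjusted p = 0.141) and -0.83 (adjusted p = 0.160). Without Control 1 edgeR called Trp53 lower (-1.19, adjusted p = 0.0092), Mdm2 higher (0.91, adjusted p = 0.0068) and Bax lower (-1.11, adjusted p = 0.0074). In that fit 26.2% of all tested genes were higher and 25.8% lower.

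Neat1, the RNA around which paraspeckles assemble, was the most abundant member that fell. It was at 35.7, 52.5 and 48.9 CPM in Control libraries against 26.0, 24.9 and 21.5 CPM in 3A, so that all 3A libraries lay below all Control libraries. Its log2 change was -1.01 ± 0.22 (edgeR adjusted p = 0.025). When a library was left out it ranged from -1.20 to -0.89, with an adjusted p of 0.00067 without Control 1 and above the threshold, up to 0.119, without any of the others. The 12 tested paraspeckle proteins and NEAT1 processing factors, among them Sfpq, Nono and Cpsf6, gave 0 calls in either direction by edgeR or limma-voom with 6 libraries (median log2 fold change 0.17). At an unadjusted edgeR p under 0.05, 3 were higher and 0 lower. DESeq2 called 3 higher and 0 lower, where it called 1678 higher and 1887 lower over all genes. Without Control 1 edgeR called 4 of the 12 higher and 1 lower, beside 26.2% and 25.8% of all genes in that fit.

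Ptgs2os2, known as lincRNA-Cox2, is an RNA from the locus of the prostaglandin synthase gene Ptgs2 and is best known in immune cells. It was at 0.842, 0.615 and 0.780 CPM in Control libraries against 0, 0.0276 and 0.142 CPM in those of 3A, a log2 change of -3.69 ± 0.74 (edgeR adjusted p = 0.018). It passed the rule only through Control, and it lost its call without Control 3 (adjusted p = 0.0548) and without 3A 2 (adjusted p = 0.112). Ptgs2, whose start lies 64.9 kb away, fell with it, from 93.8, 103 and 109 CPM to 35.4, 36.8 and 45.5 CPM (-1.46 ± 0.18, adjusted p = 0.0033). For both genes all 3A libraries lay below all Control libraries.

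The other members that fell have predicted names. Gm12349, near the keratin gene Krt42, went from 26.1, 22.8 and 19.8 CPM to 8.89, 13.3 and 9.36 CPM (log2 fold change -1.19 ± 0.20, edgeR adjusted p = 0.0090) and lost its call without 3A 3 (adjusted p = 0.0596). Gm4316 went from 4.99, 3.66 and 3.36 CPM to 1.20, 1.24 and 1.22 CPM (-1.77 ± 0.23, adjusted p = 0.0038) and was called with any library left out. It shares 788 bases at 99.4% identity, on the opposite strand, with a transcript of Miga1, a mitochondrial fusion factor gene on another chromosome. Miga1 was higher in 3A (2.52 ± 0.26, adjusted p = 0.0015), so the copy and the parent gene moved in opposite directions, and how reads common to them were assigned is not known. 4933404O12Rik and Gm26809 fell by 1.12 ± 0.27 (adjusted p = 0.036) and 0.58 ± 0.14 (adjusted p = 0.036), each called in 1 of the 6 fits with a library left out, the one without Control 1.

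Among host genes, whose introns yield snoRNAs, 0 of 6 were higher and 1 was lower, by edgeR, DESeq2 and limma-voom alike. At an unadjusted edgeR p under 0.05, 0 were higher and 2 lower. Snhg18, host of Snord123, was at 0.640, 1.29 and 1.01 CPM in Control, and in 3A it had 1 count in 3A 1 and none in 3A 2 and 3A 3. The 85 counts against 1 correspond to a 104-fold ratio with a 95% counting interval of 18.2 to 4161, and edgeR's adjusted p was 0.0033. The call held with any library left out. Snhg18 passed the rule only through Control, so that its fall was in part fixed by the rule. In 3A the RNA was at or under the floor of 0.0284 CPM that 3 counts over that group correspond to.

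Snhg18 and Sema5a, a semaphorin gene of cell guidance, start 148 bases apart and are read in opposite directions. Sema5a was at 2.32, 0.615 and 0.897 CPM in Control libraries against 0.0293, 0.0828 and 0 CPM in 3A (log2 fold change -4.98 ± 0.83, edgeR adjusted p = 0.0093). Both genes of the pair were therefore nearly silent in every 3A library and present in every Control library. The window of 300 bases that holds both starts (chr15:32244613-32244912, GRCm38.p6, RefSeq) is shown on the strand of Snhg18 because the pair changed together. Its GC content is 75.3%, beside a median of 52.7% over all 32851 windows of that table, and it holds 31 CpG dinucleotides.
Snhg18: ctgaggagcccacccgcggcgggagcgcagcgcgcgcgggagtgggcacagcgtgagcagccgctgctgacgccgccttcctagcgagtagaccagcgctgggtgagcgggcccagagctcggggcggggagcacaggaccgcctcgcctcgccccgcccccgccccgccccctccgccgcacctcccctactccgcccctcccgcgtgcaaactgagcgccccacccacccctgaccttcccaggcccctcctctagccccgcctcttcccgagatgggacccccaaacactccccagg

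The 5 other hosts were not called with all libraries. Snhg6 was at 33.9, 75.9 and 81.8 CPM in Control libraries against 41.4, 35.9 and 32.8 CPM in 3A (log2 fold change -0.90, edgeR adjusted p = 0.128), and Snhg12 was at 19.2, 32.0 and 31.0 CPM and 22.9, 17.1 and 21.6 CPM (-0.51, adjusted p = 0.220). In both, Control 1 lay among the 3A libraries. Epb41l4aos, Snhg20 and 2700038G22Rik had log2 fold changes of -0.47, 0.03 and -0.09. Without Control 1, 4 of the 6 hosts were lower, in a fit where 25.8% of all tested genes were lower, against 7.39% with all libraries. Of 9 tested proteins of snoRNA particles, such as Fbl and Dkc1, 0 were called by edgeR with or without that library, and 0 by DESeq2 or limma-voom. At an unadjusted edgeR p under 0.05 there were 0 with all libraries and 3 lower without Control 1.

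A member's position relative to coding genes went with the direction of its calls. Of the 206, 37 were divergent (head to head with a coding gene on the other strand, starts within 5 kb), 17 began within 5 kb downstream of a coding gene on their strand, 26 overlapped a coding gene on the opposite strand and 6 on the same strand. The other 120 had none of these relations, but may lie close to a coding gene in another arrangement, such as tail to tail. Of those 120, 35 (29.2%) were higher and 3 lower, with a median log2 fold change of 0.44. Of the 86 with a relation, 4 were higher and 3 lower. Divergent members gave 2 higher and 0 lower by edgeR (median log2 fold change -0.07), with 2 and 3 at an unadjusted p under 0.05, 2 and 1 by DESeq2 and 2 and 0 by limma-voom. Downstream ones gave 0 higher and 2 lower (median -0.31), with 0 and 5 unadjusted, 0 and 4 by DESeq2 and 0 and 3 by limma-voom.

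**Figure D3:**
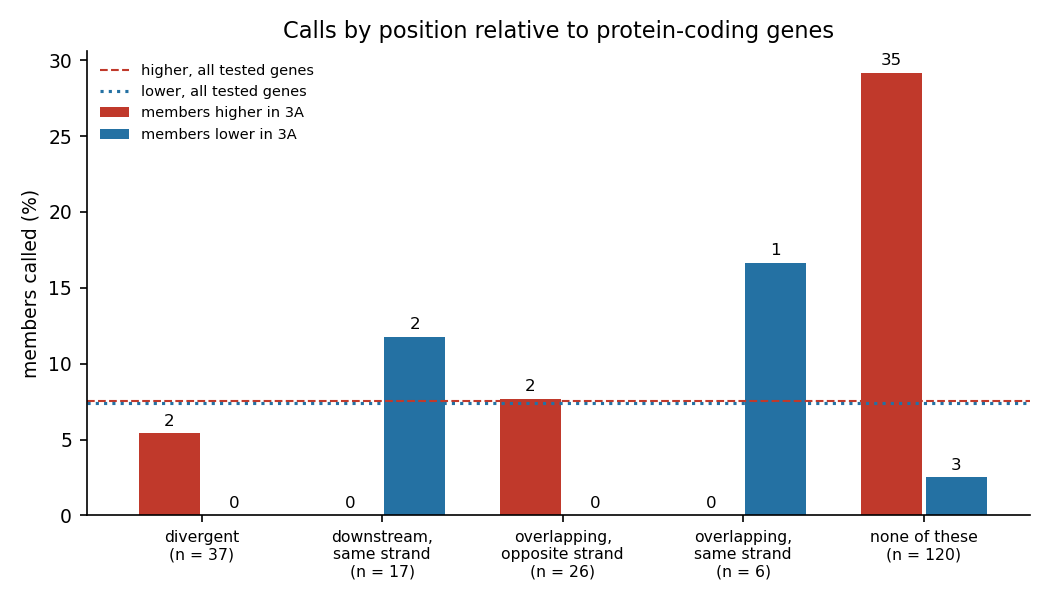
Bars give the percent of members called higher (red) or lower (blue) in 3A for each position relative to coding genes, with the number called above each bar, and the lines give the shares over all tested genes (7.52% and 7.39%). Of the 39 rises, 35 are among the 120 members with none of these relations to a coding gene (29.2%).

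The same contrast was present among the 183 members that passed through both groups. There, 21 of 102 with none of these relations to a coding gene were higher (20.6%, median log2 fold change 0.34), and 2 of 81 with a relation (2.47%, median -0.08). Without Control 1, 36 of the 102 were higher (35.3%) and 21 lower (20.6%), and of the 81, 8 were higher (9.88%) and 19 lower (23.5%). The median level was 2.12 CPM in the former and 1.41 CPM in the latter. Over all members, the 39 that rose lay a median of 85.3 kb from the nearest coding start, against 19.4 kb for those not called. Of the 39, 16 passed the rule only through 3A, so this distance is not free of the rule. Because members share chromosomes and neighbours, these counts are a description.

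Of the 39 RNAs that rose, among them 16 that passed the rule only through 3A, 29 had a neighbouring coding gene that was tested. Of these 29 neighbours 4 were higher (13.8%) and 0 lower, beside 7.52% and 7.39% of all tested genes. For members that were not called, 12 of 133 tested neighbours were higher (9.02%) and 10 lower (7.52%). Over 167 members with a tested neighbour, Pearson's r between the log2 fold changes was 0.26, and over the 37 divergent pairs 0.51. Members that passed only through 3A or only through Control are included in these values. Both members of a pair come from the same libraries, and reads at a shared start may be divided between them.

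5930412G12Rik and Fzd10 were the divergent pair in which both genes rose. Fzd10 encodes a Frizzled receptor for Wnt ligands, and the starts lie 151 bases apart (5930412G12Rik at chr5:128579106-128600693, minus strand). The RNA was at 0.101, 0.0970 and 0 CPM in Control libraries against 0.907, 0.635 and 0.766 CPM in 3A (log2 fold change 3.35 ± 0.61, edgeR adjusted p = 0.014). It lost its call without any 1 of the 3A libraries (adjusted p of 0.0515, 0.0568 and 0.0703). Fzd10 was at 1.48, 0.550 and 0.585 CPM and at 6.85, 7.56 and 8.54 CPM (3.08 ± 0.37, adjusted p = 0.0029). All 3A libraries were above all Control libraries for both.

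Other divergent pairs parted. Gm12319 starts 709 bases from Eno3, the muscle form of the glycolytic enzyme enolase, which rose from 6.43, 7.67 and 7.33 CPM to 84.1, 59.1 and 56.6 CPM (log2 fold change 3.14 ± 0.23, edgeR adjusted p = 0.00049). Gm12319 was at 2.05, 1.94 and 1.29 CPM in Control libraries against 2.08, 1.44 and 1.76 CPM in 3A, with overlapping groups and a log2 fold change of -0.07 ± 0.28 (adjusted p = 0.880). Gm30835, the other divergent member that rose, starts 111 bases from the metalloreductase gene Steap4. It went from 1.18, 0.906 and 1.09 CPM to 2.28, 2.59 and 3.06 CPM (1.25 ± 0.26, adjusted p = 0.021), while Steap4 had -0.38 ± 0.44 (adjusted p = 0.560). With a library left out, Gm30835 was called in 2 of 6 fits, those without Control 1 and without 3A 1. Gm12319 and Gm30835 were picked for display after their values were seen.

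Farther from a start, Gm44275 lies 9.16 kb from Pbp2 and both rose. The RNA went from 2.63, 1.26 and 1.60 CPM to 6.47, 12.1 and 12.9 CPM (log2 fold change 2.46 ± 0.36, edgeR adjusted p = 0.0056), and Pbp2, of the phosphatidylethanolamine-binding family, from 1.15, 1.07 and 1.99 CPM to 8.43, 6.51 and 5.48 CPM (2.20 ± 0.35, adjusted p = 0.0075). Gm43154 rose by 1.16 ± 0.30 (adjusted p = 0.043) beside Podxl, the sialomucin podocalyxin, which rose by 3.61 ± 0.30 (adjusted p = 0.00074), and it was called in 2 of 6 fits with a library left out, those without Control 1 and without Control 3. 4930412B13Rik rose by 2.42 ± 0.36 (adjusted p = 0.0063) at 290 kb from Thbs1, the matrix glycoprotein thrombospondin 1, which rose by 0.87 ± 0.20 (adjusted p = 0.029).

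**Figure D4:**
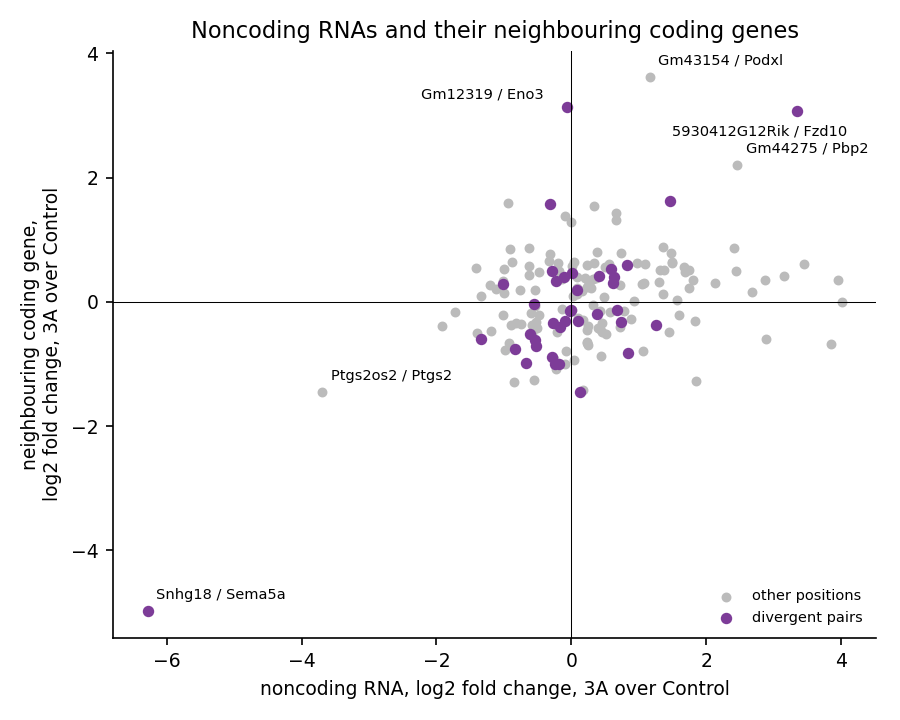
Each point pairs 1 noncoding RNA (horizontal axis) with its neighbouring coding gene (vertical axis), both as log2 fold changes of 3A over Control, with divergent pairs in purple. Snhg18 with Sema5a (lower left) and 5930412G12Rik with Fzd10 (upper right) changed together, whereas Eno3 rose by 3.14 beside Gm12319 at -0.07.

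By chromosome, members on chromosome 8 stood out after the values were seen: 8 of 19 were higher there (42.1%), against 31 of 187 elsewhere (16.6%). Of these 8, 4 passed the rule only through 3A. Among members that passed through both groups, 4 of 15 on chromosome 8 were higher (26.7%) and 19 of 168 elsewhere (11.3%), and without Control 1 5 of the 15 were higher and 5 lower. Coding genes on chromosome 8 were higher in 62 of 664 cases (9.34%), within the 3.41% to 9.46% of the other autosomes. The 8 included 3 RNAs on the downstream side of Irs2, an insulin receptor substrate gene: 5330413D20Rik (chr8:10675348-10676913), 3930402G23Rik (chr8:10924427-10928696) and Gm44956 (chr8:10962957-10970814), all on the minus strand. All 3 passed only through 3A, so that their rise was in part fixed by the rule. 3930402G23Rik went from 0.472, 0.485 and 0.468 CPM to 1.49, 1.93 and 1.84 CPM (log2 fold change 1.80 ± 0.28, edgeR adjusted p = 0.0071). Irs2 was at 100.5, 68.3 and 74.3 CPM in Control libraries against 100.3, 125 and 100.3 CPM in those of 3A, a log2 fold change of 0.36 ± 0.17 (adjusted p = 0.176). Without Control 1 edgeR called Irs2 higher, at 0.48 (adjusted p = 0.029).

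Promoter sequence was looked up for the RNAs that rose in RefSeq's table of starts (GRCm38.p6, 250 bases before to 50 after a start), which matched 112 of 206 members. The AP-1 motif, bound by Fos and Jun factors, was searched as TGANTCA, which reads the same on both strands. It occurred in 4 of 24 windows of the RNAs that rose (16.7%), 0 of 3 windows of those that fell, 8 of 105 windows of uncalled members (7.62%) and 7.81% of all windows in the table. The 4 windows belonged to 3300005D01Rik, Mirt1, Gm20744 and Gm6634. With so few windows these are descriptions, and a match is not shown to be a bound site.

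The windows of the 3 with the largest rises follow, with the motif in capitals. They lie at chr17:5798407-5798706 (plus strand), chr7:82070137-82070436 (plus strand) and chr19:53464747-53465046 (minus strand), each printed on the strand of its gene.
3300005D01Rik: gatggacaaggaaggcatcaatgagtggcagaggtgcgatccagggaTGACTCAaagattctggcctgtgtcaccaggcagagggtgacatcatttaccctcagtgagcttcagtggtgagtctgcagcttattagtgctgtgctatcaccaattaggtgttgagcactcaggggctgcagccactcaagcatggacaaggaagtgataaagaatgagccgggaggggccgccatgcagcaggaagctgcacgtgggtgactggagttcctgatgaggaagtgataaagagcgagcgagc
Gm20744: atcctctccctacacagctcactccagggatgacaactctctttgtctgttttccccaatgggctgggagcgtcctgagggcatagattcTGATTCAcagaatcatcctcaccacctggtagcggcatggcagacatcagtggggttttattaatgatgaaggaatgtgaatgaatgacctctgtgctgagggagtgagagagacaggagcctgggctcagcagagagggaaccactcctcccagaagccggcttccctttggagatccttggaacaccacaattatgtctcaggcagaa
Mirt1: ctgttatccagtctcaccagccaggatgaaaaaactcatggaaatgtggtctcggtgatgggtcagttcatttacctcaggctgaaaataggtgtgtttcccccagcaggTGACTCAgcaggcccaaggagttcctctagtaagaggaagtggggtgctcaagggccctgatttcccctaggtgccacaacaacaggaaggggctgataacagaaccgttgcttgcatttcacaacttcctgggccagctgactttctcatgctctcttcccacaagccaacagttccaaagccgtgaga

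Several of the most abundant members were not called, and their libraries disagreed within a group. Control 1 lay inside the 3A range in 61 of 206 members (29.6%), beside 31.6% of all tested genes, so this placement is not particular to these RNAs. Malat1 was at 40.7, 223 and 315 CPM in Control 1, 2 and 3 and at 80.3, 46.8 and 40.0 CPM in 3A 1, 2 and 3. Control 1 lay at the low end of the 3A range, far below the other Control libraries. The log2 change came to -1.92 ± 0.71 (edgeR adjusted p = 0.107) with all libraries and -2.40 (adjusted p = 0.00094) without Control 1, and 0.32 with the mitochondrial share as a covariate (adjusted p = 0.403). That share was high in Control 2 and 3 alone, so the fit with it sets mainly Control 1 against 3A. It cannot separate the share from other differences of Control 2 and 3. Neat1, which was called with all libraries, lies close to Malat1 on the same strand (chr19:5824708-5845478 and chr19:5795690-5802672).

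Norad, annotated as 2900097C17Rik, showed the reverse order of libraries. It was at 49.1, 5.82 and 4.95 CPM in Control libraries against 23.3, 56.6 and 43.4 CPM in 3A. Control 2 and 3 were low and Control 1 was as high as the 3A libraries. The log2 change came to 1.05 ± 0.82 (edgeR adjusted p = 0.387) with all libraries, 2.80 (adjusted p = 0.0011) without Control 1, and -0.08 with the mitochondrial share as a covariate.

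Another member, Gm7292 on chromosome 6, is a near-copy of Norad with 99.2% identity over 2537 aligned bases. It was at 17.3, 4.33 and 4.10 CPM in Control libraries against 14.4, 18.98 and 16.4 CPM in 3A, the same order of libraries. The summed level of the 2 genes was 66.5, 10.2 and 9.05 CPM and 37.7, 75.6 and 59.8 CPM. Reads from stretches that the copies share cannot be assigned to either gene.

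**Figure D5:**
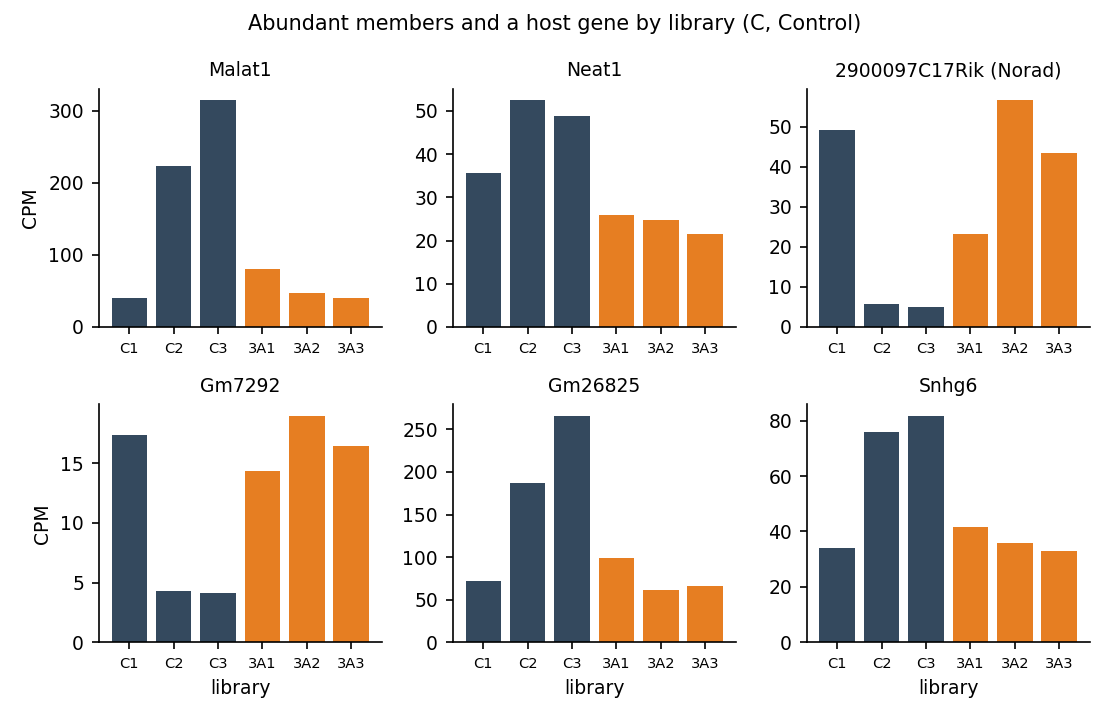
Bars give CPM in each library (dark, Control; orange, 3A) for Malat1, Neat1, Norad, its near-copy Gm7292, Gm26825 and the host gene Snhg6. In all panels but Neat1 the bar of Control 1 lies within the range of the 3A bars. For Neat1 it lies between the 3A bars and those of Control 2 and 3.

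Per kilobase of exon, the 10 highest members were Gm42418, Gm10076, Gm26825, Gm26917, Gm13056, AW112010, Gm12349, Tmem250-ps, Gm42047 and Malat1. Only Gm12349 among them was called with all libraries. Gm42418, which overlaps ribosomal RNA sequence, alone took 57.3% to 82.8% of the members' counts, at 2832, 7752 and 5335 CPM in Control libraries against 1916, 1888 and 4266 CPM in 3A (log2 fold change -1.08, edgeR adjusted p = 0.163). Gm26917 overlaps the same kind of sequence and was at 68.7 to 174 CPM (-0.80, adjusted p = 0.118). Without Control 1 edgeR called both lower, Gm42418 at -1.40 (adjusted p = 0.012) and Gm26917 at -1.08 (adjusted p = 0.0019). In that fit 25.8% of all tested genes were lower. Leaving out these 2 genes, members held 0.110%, 0.144% and 0.165% of counts in Control and 0.133%, 0.127% and 0.125% in 3A, with overlapping groups.

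Some of the highest values come from copies of coding genes. Gm26825 shares 1940 bases at 99.6% identity, on the opposite strand, with the chaperone transcript Hspa8, and was at 72.2, 187 and 266 CPM in Control libraries against 98.4, 60.9 and 66.0 CPM in 3A. Hspa8 had the same order within Control, at 2011, 3130 and 3581 CPM. Gm10076 shares 383 bases at 99.5% identity with the ribosomal protein transcript Rpl41 and had a log2 fold change of 0.10 (edgeR adjusted p = 0.730). In all, 26 members share at least 150 bases at 98% identity or more with a coding transcript, and 2 of these were called, Gm4316 and 2010300F17Rik. The levels of such members are uncertain, since reads may have been divided between copies or strands.

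The remaining characterised RNAs gave no call with all libraries. Of 33 tested RNAs on a list of characterised long noncoding RNAs of any class, Trp53cor1 was higher and Neat1, Ptgs2os2 and Snhg18 were lower, with a median log2 fold change of -0.47. DESeq2 called 1 higher and 6 lower, and edgeR without Control 1 called 3 higher and 15 lower of the 33, where 26.2% of all genes were higher and 25.8% lower. 1700020I14Rik, the mouse Cyrano RNA that directs the decay of a microRNA, was at 68.9, 47.9 and 49.4 CPM in Control libraries against 53.8, 72.0 and 78.5 CPM in 3A (0.24 ± 0.19, edgeR adjusted p = 0.403). Lockd, downstream of the cell-cycle inhibitor gene Cdkn1b, was at 1.21, 2.85 and 2.85 CPM and 1.29, 1.32 and 1.13 CPM (-0.98, adjusted p = 0.138, and -1.31, adjusted p = 0.0045, without Control 1), and Cdkn1b was lower (-0.78, adjusted p = 0.011). Mir17hg, host of the miR-17 cluster, and Bvht, known from heart development, had log2 fold changes of 0.16 (adjusted p = 0.844) and 0.28 (adjusted p = 0.515).

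Factors that process or degrade noncoding RNA did not pass the test with all libraries. Of 18 tested genes of the nuclear exosome and its adaptors, 0 were higher and 0 lower by edgeR or limma-voom (median log2 fold change -0.09), with 3 higher and 2 lower at an unadjusted edgeR p under 0.05 and 1 called higher by DESeq2. Of 10 factors of nonsense-mediated decay, 0 were called by edgeR, DESeq2 or limma-voom (median -0.07), with 1 higher and 1 lower at an unadjusted edgeR p under 0.05. Without Control 1, 3 exosome genes were higher and 8 lower, and 2 decay factors were higher and 3 lower, beside 26.2% and 25.8% of all genes in that fit.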

How the data were processed

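Tools named in the submitters' processing notes, without roles, were limma, edgeR, featureCounts and Trim Galore, with the builds hg38, GRCh38 and mm10; the series' design text adds FastQC and MultiQC. Which aligner, annotation release or strand setting was used is not given in the sources used here. The deposited values are whole-number read counts per gene, made by the authors and not normalized.

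Of 49315 gene IDs, 49056 matched GENCODE M21 (GRCm38, the assembly of mm10). Counts were divided by column totals for CPM. The quasi-likelihood test of edgeR 4.0.16 (R 4.3.3) was used after filterByExpr and TMM scaling, with no term but group, with Benjamini-Hochberg adjustment over the 13704 genes tested. Alternatives were other scalings and filters, DESeq2 1.42.0, limma-voom 3.58.1, a replicate block and each library left out. A mitochondrial covariate and removal of the genes overlapping ribosomal RNA were added after seeing the data. Shared sequence was found with BLAST 2.17.0 on GENCODE transcripts. Scripts were tested on simulated data. Counting intervals cover counting error only.

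The members and lists were chosen with earlier results of these data known. The rule for names took the members and hosts on the lists of architectural, p53 target, conserved cytoplasmic and characterised RNAs (list genes of other classes are given as counts, except Tug1), the 12 largest called rises and up to 12 falls, the 10 highest per kilobase, all called hosts, called divergent pairs in which both genes were called, the 3 genes on either side of the CPM rule, and up to 4 called genes per list. Other members and coding neighbours named here were chosen after their values were seen.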

Additional observations from a re-analysis of the deposited data

How the results depend on the processing

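Counts of members higher and lower in 3A (39 and 6) stayed within 1.5 times under both other scalings, no filter, the filter of 1 CPM, limma-voom, member minimums of 1 and 0.25 CPM, the mitochondrial covariate and removal of the genes overlapping ribosomal RNA. The mitochondrial share nearly marks Control 2 and 3, so its fit sets mainly Control 1 against 3A and cannot separate the share from other differences of those libraries. DESeq2 gave 50 and 16, and over all genes 1678 higher and 1887 lower in place of 1031 and 1013. Leaving out 1 library gave 14 to 62 members higher and 2 to 43 lower, with all genes at 346 to 3751 higher and 318 to 3690 lower, and hosts lower at 1 to 4. The highest counts all came without Control 1. No host was lower under the filter of 1 CPM or among hosts at 1 CPM (0 each), and 1 was higher with the mitochondrial covariate. Both minimums of 1 CPM leave out Snhg18, the host called in the main fit, which reached that level only in Control 2 and 3.

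Same-numbered libraries correlated at -0.66, -0.42 and -0.37 in their deviations from the group means, and no library correlated best with its own number. Such deviations cancel out within a group, which constrains these values, so they cannot decide whether the samples were paired. With a replicate block, 142 genes were higher and 146 lower, with 4 members higher, 0 lower and 0 hosts lower by edgeR (48, 10 and 1 at an unadjusted p under 0.05).

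Among named RNAs, none that was called changed sign. With the mitochondrial covariate, log2 fold changes of uncalled RNAs turned to -0.080 for 2900097C17Rik, 0.042 for AW112010, 0.43 for Epb41l4aos, -0.11 for Gm10076, 0.087 for Gm13056, 0.022 for Gm26825, 0.63 for Gm42047, 0.32 for Malat1, 0.087 for Snhg12 and 0.072 for Snhg6. With each library left out, uncalled RNAs that crossed 0 ranged from -0.067 to 0.21 for Gm10076, -0.44 to 0.19 for Gm42047, -0.25 to 0.66 for Mir17hg and -0.37 to 0.30 for Snhg20. The cause was not tested. Most members are near 1 CPM, where few reads limit the smallest change that can be called.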
